A study of Sus scrofa with 36 samples.

Results

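The facilitated hexose transporters of the SLC2A family were examined in the hearts of newborn pigs. Members were the rows of the deposited gene count table whose gene name starts with SLC2A and a number and that held at least 10 counts in at least 3 libraries, which gave 4 genes, SLC2A5, SLC2A6, SLC2A8 and SLC2A12, of 6 SLC2A rows. The table used here holds 9815 gene rows on chromosomes 1, 2, 6 and 13, and 5526 of them passed the same count filter. SLC2A5, the fructose carrier, is described first and then set against the other hexose transporters.

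The hearts came from domestic Yorkshire pigs, males and females, at postnatal days 1, 3, 7 and 28 (P1, P3, P7 and P28). All animals were fed normally, and the labels name no allele, operation or agent. Every library used here was made from total RNA of heart tissue, a mixture of cell types, with ribosomal RNA removed. Of 36 libraries in the study, the 12 that CD Genomics sequenced (batch cd) have gene counts, from 3 different pigs at each age. Libraries are named here by their age and by the column numbers 4 to 6 of the table, which the sample labels do not use.

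SLC2A proteins (GLUT proteins) let hexoses cross membranes down their concentration gradient, without the sodium coupling of the SLC5A carriers. GLUT5, the product of SLC2A5, carries fructose with little affinity for glucose and is best known from the apical membrane of the small intestine. GLUT12 (SLC2A12) carries glucose and is made in heart and skeletal muscle, while GLUT8 (SLC2A8) and GLUT6 (SLC2A6) lie mostly on membranes inside the cell. The main glucose carriers of heart muscle are GLUT1 and GLUT4, the products of SLC2A1 and SLC2A4.

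Total counts per library over the rows on chromosomes 1, 2, 6 and 13 ranged from 8887176 to 14883849, the latter in P1 library 4. Of these counts, 7.09% to 19.7% fell on Metazoa_SRP rows, copies of the RNA of the signal recognition particle. Heart muscle markers were present in every library. The summed level of 5 cardiomyocyte genes was between 61535 and 81699 CPM (a counts-per-million scale that uses effective library sizes), with none of them at 0 at any age. The biological coefficient of variation, the spread between pigs beyond counting error, had a median of 19.1% over all genes tested. Counts come from reads without molecular identifiers, so all counting intervals cover counting error only.

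SLC2A5 was high at P1 and close to absent at P28. The gene (ENSSSCG00000039651, chromosome 6, 69507825 to 69535372, protein coding) had 83.1, 29.7 and 28.5 CPM in P1 libraries 4, 5 and 6. At P3 it had 1.66, 3.90 and 1.41 CPM, and at P7 0.719, 0.332 and 0.491 CPM. At P28 it had 0.160, 0.165 and 0.0985 CPM. Every library of an age lay below every library of the age before it, so that no 2 ages overlapped. Of all genes tested, 16% did not overlap between P1 and P3, 30.6% between P1 and P7, 44.4% between P1 and P28, 22.9% between P3 and P7, 32% between P3 and P28 and 47% between P7 and P28. In raw counts the gene went from 1113, 413 and 346 at P1 to 18, 33 and 18 at P3, then to 8, 5 and 6 at P7 and to 2, 2 and 1 at P28. SLC2A5 therefore entered the tested set through its 6 P1 and P3 libraries, since no P7 or P28 library reached 10 counts. The means were 47.1 ± 31.2, 2.32 ± 1.37, 0.514 ± 0.194 and 0.141 ± 0.0370 CPM at P1, P3, P7 and P28 (SD, n = 3 each). In heart tissue, fewer cells of a type that makes the transcript cannot be told apart from less of it per cell.

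**Figure D1:**
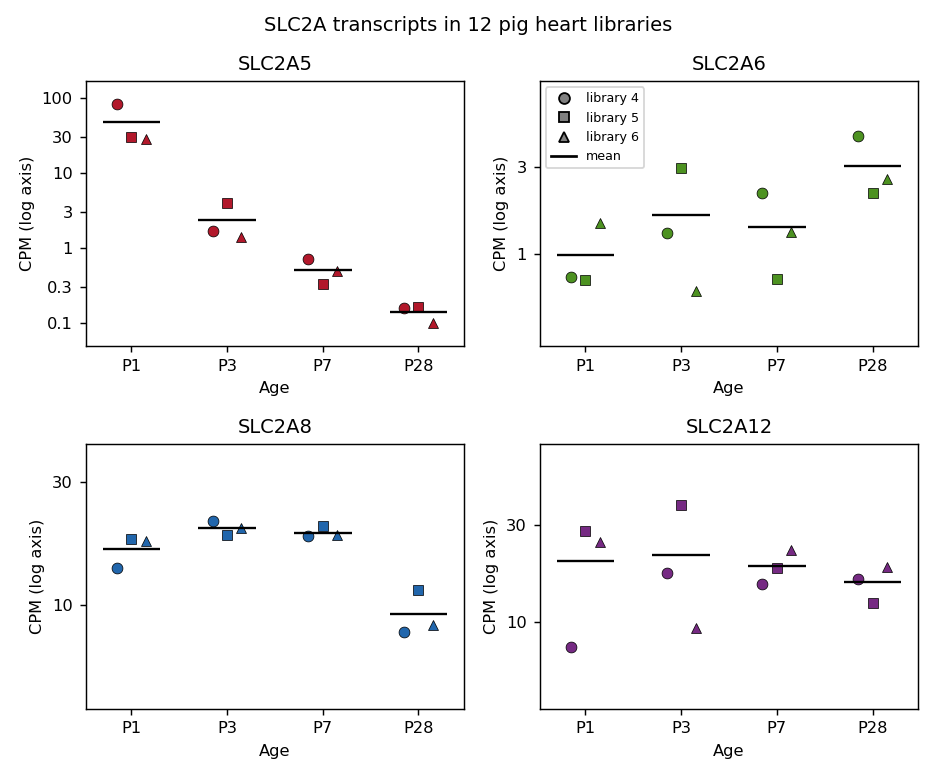
CPM of the 4 tested SLC2A genes in each of the 12 libraries (symbols, log axis, a separate scale for each gene) with the mean of each age (line). SLC2A5 is lower in every library of each later age, from a mean of 47.1 CPM at P1 to 0.141 CPM at P28, SLC2A8 is lowest at P28 and SLC2A12 overlaps at all ages.

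Between P1 and P3, 1 of the 4 SLC2A genes passed the test (edgeR's quasi-likelihood test, Benjamini-Hochberg adjusted p under 0.05), against 0.0543% of all 5526 genes. This was SLC2A5, which fell by 4.38 on the log2 scale (SE 0.49, 95% interval -5.44 to -3.33, adjusted p = 0.00402). From summed counts, 1872 at P1 against 69 at P3, the P1 level was 22.1 times the P3 level (exact 95% counting interval 17.4 to 28.5). The lowest P1 library was still 7.31 times the highest P3 library. P1 library 4 held more than the other 2 P1 libraries together, and without it the ratio was 13.6 (10.6 to 17.6) and the log2 change -3.67, with an adjusted p of 0.00346. Of all genes tested in this contrast, SLC2A5 had the smallest p and the fifth largest decrease. Its edgeR adjusted p rose to 0.0497 when only P1 and P3 were fitted and to 0.0286 without P3 library 6. DESeq2 called 122 genes in all in this contrast, where edgeR called 3.

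Between P1 and P7, SLC2A5 was again the 1 member past the threshold, against 2.01% of all genes. It fell by 6.53 on the log2 scale (SE 0.57, 95% interval -7.76 to -5.30, adjusted p = 0.000248), and without P1 library 4 the log2 change was -5.83. The ratio of P1 to P7 from summed counts was 96.0 (61.3 to 159.8, 19 counts at P7).

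Between P1 and P28, 2 of the 4 members passed, both lower at P28, against 15.3% of all genes in either direction, 7.93% lower and 7.38% higher at P28. SLC2A5 fell by 8.26 on the log2 scale (SE 0.67, 95% interval -9.70 to -6.81, adjusted p = 5.20e-05), the largest fitted decrease of the 5526 genes. The ratio of P1 to P28 from summed counts was 330.1, with an exact 95% counting interval of 141 to 1018 that reflects the 5 counts at P28. Without P1 library 4 the ratio was 203 (86.5 to 626) and the log2 change -7.57 (adjusted p = 3.22e-05). The lowest P1 library was 173 times the highest P28 library.

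Against the mean of the 3 later ages, SLC2A5 was lower by 6.39 log2 units than at P1 (SE 0.37, adjusted p = 1.82e-06), and without P1 library 4 the log2 change was -5.69. It was the 1 member called in this comparison, against 2.46% of all genes, and both its p and its fitted decrease ranked first among all genes tested.

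The steps after P3 were smaller and were measured on few counts. From P3 to P7, 0 members passed, against 2.21% of all genes, while at an unadjusted p under 0.05 there was 1, SLC2A5, as for 18.9% of all genes. DESeq2 called 1 member, SLC2A5, and 363 genes in all, where edgeR called 122. At the looser rule of the study (unadjusted p up to 0.05, log2 change beyond 0.5) SLC2A5 counted, as did 13% of all genes. The log2 change of SLC2A5 over this step was -2.15 (SE 0.61, 95% interval -3.46 to -0.83, unadjusted p = 0.00381, adjusted p = 0.0884), and the adjusted p was 0.00823 to 0.289 over the alternatives. Without P1 library 4 the adjusted p was 0.0360, which passed. The ratio of summed counts was 4.35 (2.59 to 7.65), and the lowest P3 library was 1.96 times the highest P7 library. From P7 to P28 the log2 change was -1.73 (SE 0.94, 95% interval -3.76 to 0.30, adjusted p = 0.225), with a count ratio of 3.44 (1.24 to 11.8). Of the whole log2 difference between P1 and P28, 53.1% lay between P1 and P3, 26.0% between P3 and P7 and 20.9% between P7 and P28.

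**Figure D2:**
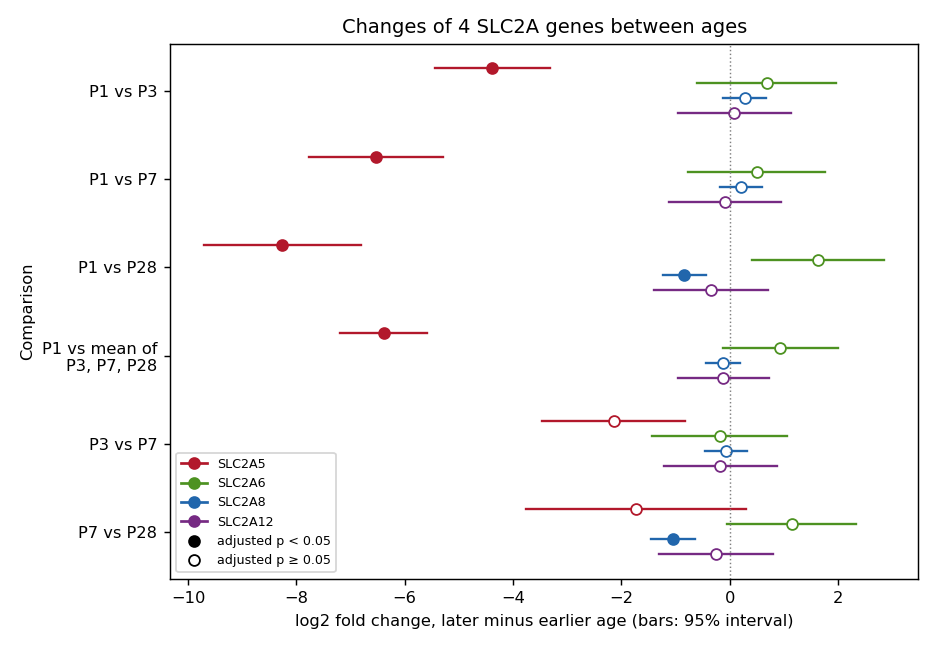
Log2 fold changes (later minus earlier age, points) with 95% intervals (bars) of the 4 SLC2A genes in 6 comparisons, filled where the adjusted p was under 0.05. SLC2A5 lies at -4.38, -6.53 and -8.26 in P1 versus P3, P7 and P28, whereas the intervals of SLC2A12 include 0 in all 6 comparisons.

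SLC2A8, the transporter of intracellular membranes, was nearly level over the first week and was lower at P28. The gene (ENSSSCG00000005610, chromosome 1, 267925193 to 267937038) had 13.9, 18.1 and 17.7 CPM in the P1 libraries, 21.2, 18.8 and 19.9 at P3 and 18.5, 20.2 and 18.6 at P7. At P28 it had 7.86, 11.4 and 8.38 CPM. All 3 P28 libraries lay below all 9 earlier ones. The means were 16.6 ± 2.32, 20.0 ± 1.23, 19.1 ± 0.943 and 9.23 ± 1.94 CPM (SD, n = 3 each). SLC2A8 fell by 0.84 on the log2 scale between P1 and P28 (SE 0.18, 95% interval -1.24 to -0.44, edgeR adjusted p = 0.00968), which is 1.79-fold. Between P7 and P28 it was the 1 member that passed, against 18.8% of all genes, and it fell by 1.05 (SE 0.18, 95% interval -1.45 to -0.65, adjusted p = 0.00248), which is 2.07-fold. In that step 10.5% of all genes were lower and 8.34% higher. The P3 and P7 libraries lay just above those of P1, with gaps of 1.04-fold and 1.02-fold, and these differences did not pass (log2 changes 0.27 and 0.21, adjusted p = 0.473 and 0.650).

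SLC2A12, a glucose carrier of heart and skeletal muscle, differed more between pigs of an age than between ages. The gene (ENSSSCG00000004172, chromosome 1, 29836056 to 29901995) had 7.54, 28.0 and 24.9 CPM at P1 and 17.5, 37.7 and 9.38 CPM at P3. At P7 it had 15.5, 18.5 and 22.7 CPM, and at P28 16.3, 12.5 and 18.8 CPM. The lowest P1 library, number 4, was the one with the highest SLC2A5, and the libraries of all ages overlapped. The coefficient of variation was 54.7% at P1 and 67.8% at P3, against 19.4% at P7 and 20.0% at P28. The means were 20.1 ± 11.0, 21.5 ± 14.6, 18.9 ± 3.66 and 15.9 ± 3.17 CPM (SD, n = 3 each). The log2 changes from P1 were 0.08 at P3 (95% interval -0.96 to 1.13), -0.09 at P7 (-1.13 to 0.95) and -0.34 at P28 (-1.39 to 0.70), with adjusted p of 0.942, 0.960 and 0.673. The change to P3 was -0.59 without P3 library 5 and 0.47 without P3 library 6, so that its direction rested on single libraries.

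SLC2A6, a transporter of lysosomal membranes, was the rarest member at P1 and the one whose estimate from P1 to P28 pointed upward. The gene (ENSSSCG00000024166, chromosome 1, 273063270 to 273075391) had 0.746, 0.720 and 1.48 CPM at P1, 1.29, 2.95 and 0.625 at P3, 2.16, 0.731 and 1.31 at P7, and 4.41, 2.14 and 2.56 at P28. The 3 P28 libraries lay above the 3 P1 libraries, by a gap of 1.44-fold, and overlapped with those of P3 and P7. The means were 0.983 ± 0.433, 1.62 ± 1.20, 1.40 ± 0.717 and 3.04 ± 1.21 CPM (SD, n = 3 each). The log2 change from P1 to P28 was 1.63 (SE 0.56, 95% interval 0.41 to 2.85), and its adjusted p of 0.0686 missed the threshold. At the study's looser rule SLC2A6 also counted, which gave 3 of 4 members against 23.1% of all genes. All 12 libraries together held 243 counts of SLC2A6, and leaving out 1 library at a time gave adjusted p from 0.0328 to 0.219. It passed without P3 library 5 (0.0328) or P3 library 6 (0.0463), and was highest without P28 library 4 (0.219).

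A test of any difference between the 4 ages called 2 of the 4 members, SLC2A5 (edgeR adjusted p = 2.29e-05, the smallest p of all genes tested) and SLC2A8 (0.00469), against 21.4% of all genes. SLC2A6 (0.145) and SLC2A12 (0.867) did not pass. The spread between pigs was wide for 3 members, with a biological coefficient of variation of 40.0% for SLC2A5, 43.3% for SLC2A6 and 40.8% for SLC2A12, and 16.0% for SLC2A8. The median over all genes was 19.1%, and 7.40%, 5.57%, 6.95% and 66.3% of all genes had a wider spread than SLC2A5, SLC2A6, SLC2A12 and SLC2A8, respectively.

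Levels of the 4 genes were compared with each other per length, as CPM per kilobase of exon. SLC2A5 had the highest level at P1, 21.9 ± 14.5 CPM per kilobase, followed by SLC2A12 at 3.37, SLC2A8 at 3.35 and SLC2A6 at 0.159. At P3 the level of SLC2A5, 1.08 ± 0.637, was under those of SLC2A8 (4.05) and SLC2A12 (3.60) and above that of SLC2A6 (0.263). At P7 SLC2A5 (0.239) and SLC2A6 (0.226) overlapped between libraries. At P28 SLC2A5 was the lowest, at 0.0656 ± 0.0172 CPM per kilobase, and lay under SLC2A6 (0.492) in every library. The order of SLC2A12 and SLC2A8 did not stand out from their spread at P1, P3, P7 or P28, where their libraries overlapped.

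SLC2A5 made up 62.0% to 90.2% of the summed per-length level of the 4 genes at P1, 9.42% to 14.6% at P3, 2.07% to 4.76% at P7 and 0.863% to 1.58% at P28. The highest share was that of P1 library 4. At P28, SLC2A12 held a mean share of 52.0%, SLC2A8 37.0% and SLC2A6 9.66%. The sum of the other 3 genes moved far less, from 6.88 ± 2.34 CPM per kilobase at P1 over 7.91 ± 2.48 at P3 and 7.26 ± 0.555 at P7 to 5.02 ± 0.251 at P28 (SD, n = 3 each). Within a library, the per-length ratio of SLC2A5 to SLC2A8 was 13.7, 3.77 and 3.69 at P1, 0.180, 0.476 and 0.162 at P3, 0.0891, 0.0377 and 0.0604 at P7, and 0.0468, 0.0330 and 0.0270 at P28. SLC2A5 thus exceeded SLC2A8 in all 3 P1 libraries and in none of the 9 later ones. These shares and ratios are descriptions, and the difference between the genes was not tested.

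**Figure D3:**
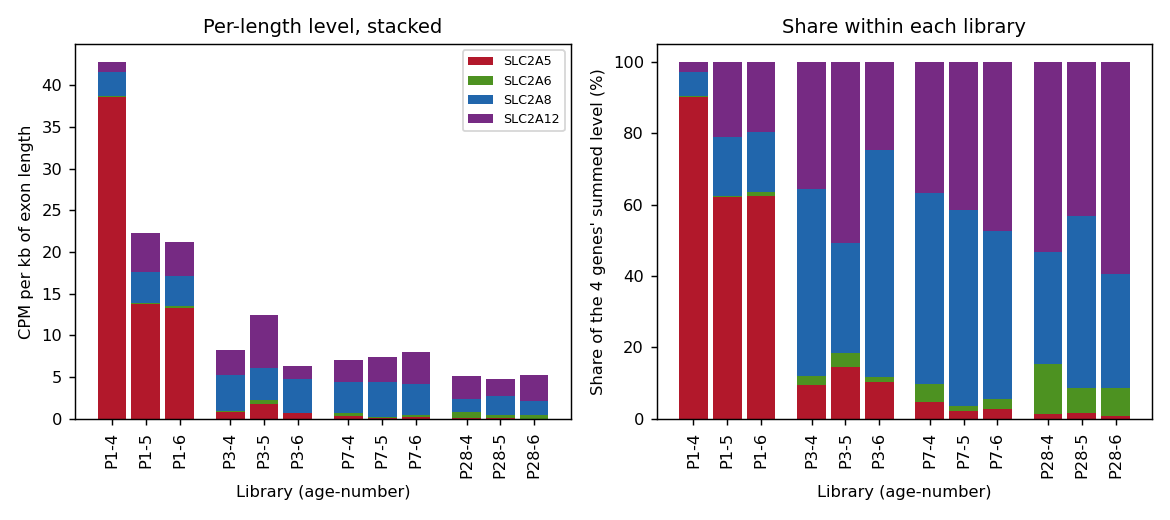
Stacked per-length levels (left, CPM per kilobase of exon) and shares of their sum (right, %) of the 4 SLC2A genes in each library. SLC2A5 takes 62.0% to 90.2% at P1 and at most 1.58% at P28, while the stack of the other 3 genes stays between means of 5.02 and 7.91 CPM per kilobase.

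The other 2 SLC2A rows were below the count filter. SLC2A2 (ENSSSCG00000020927, chromosome 13, 109587256 to 109623787), the carrier of liver and pancreatic beta cells, had 5 counts in all, spread over 3 libraries with at most 2 in each. SLC2A7 (ENSSSCG00000003390, chromosome 6, 69484227 to 69503732), an intestinal hexose carrier, had 0 counts in all 12 libraries. A count of 0 allows a level of up to 0.354 CPM in the shallowest library. RefSeq's annotation of Sscrofa11.1 lists 13 SLC2A genes, and 7 of them had no row of that name. Of these, 6 (SLC2A3, SLC2A4, SLC2A9, SLC2A10, SLC2A11 and SLC2A13) lie on other chromosomes and were not analysed here. The remaining one, SLC2A1, lies in RefSeq within the stretch of chromosome 6 from 168534655 to 168690095 that the table gives to the row P3H1 (ENSSSCG00000023920), together with 5 further coding genes. The P3H1 row had 269 ± 56.0 CPM at P1 and 228 ± 36.7 at P28 (log2 change -0.24, SE 0.21, edgeR adjusted p = 0.451) and passed in none of the 6 comparisons. Whether its counts include reads of SLC2A1 was not tested, so no value is given for SLC2A1.

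The rows next to SLC2A5 did not share its size of change. SLC2A7, with 0 counts, ends 4093 bases before it, and GPR157, an orphan receptor gene that starts 21083 bases after it, had a log2 change of 0.41 from P1 to P3 and of -0.10 from P1 to P28 (adjusted p = 0.457 and 0.834). In a window of 200 kilobases on either side, chosen after the values were seen, 6 other genes were tested. Between P1 and P28, 1 of these 6 passed, near the 15.3% of all genes. This was ENO1, which encodes the glycolytic enzyme enolase 1 and lies 106708 bases away. ENO1 had 1047, 557 and 663 CPM at P1, 309, 381 and 601 at P3, 325, 358 and 346 at P7, and 279, 302 and 258 at P28. It fell by 1.43 on the log2 scale (SE 0.25, adjusted p = 0.00291), and its highest library was also P1 library 4. Between P1 and P7, 3 of these 6 passed, against 2.01% of all genes, namely ENO1 (-1.14, adjusted p = 0.0396) and the long noncoding RNA genes ENSSSCG00000041487 (-1.68, adjusted p = 0.00788) and ENSSSCG00000043672 (-1.38, adjusted p = 0.0426). H6PD, a hexose-6-phosphate dehydrogenase, had a log2 change from P1 to P28 of 0.02 (adjusted p = 0.939).

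Around the other members, the row of CACFD1 overlaps that of SLC2A6 and the row of TBPL1 overlaps that of SLC2A12. How reads of overlapping genes were counted is not given in the sources used here, so the counts of these members are uncertain to that extent. CACFD1 fell between P1 and P28 (log2 change -0.86, adjusted p = 0.00176), opposite in sign to the estimate of SLC2A6. TBPL1 had a log2 change of 0.00 (adjusted p = 0.989). ZNF79, which lies 5063 bases from SLC2A8, had a change of 0.03 (adjusted p = 0.867), and SGK1, the tested gene before SLC2A12, had -0.36 (adjusted p = 0.101).

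Likeness of pattern was measured as the root-mean-square difference of mean-centred log2 CPM over the 12 libraries. By this measure, which depends on the size of changes as well as their shape, SLC2A5 had no close match among the tested genes. Its own root-mean-square deviation was 2.74, and the closest profile, the long noncoding RNA gene ENSSSCG00000041729 on chromosome 13, still differed by 1.74. The next was ENSSSCG00000043963, a coding gene on chromosome 1, at 1.81, followed by 3 long noncoding RNA genes on chromosome 2 at 1.90 to 1.94. The closest to SLC2A8 was MAPK8IP1, a scaffold protein of JNK signalling, at 0.09 against an own deviation of 0.47, followed by CALM3 (calmodulin) at 0.17 and MRAS (a small GTPase) at 0.19. For SLC2A6 they were FIBIN (0.40), SNORD24 (0.40) and FAM189A2 (0.45), against an own deviation of 0.79. The 3 closest to SLC2A12 carry no symbol and differed by 0.34 to 0.39, against an own deviation of 0.62. Libraries and their depth are shared between all profiles, and these values are descriptions.

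Other genes of sugar handling were taken from 4 lists, of which the table holds the part on its chromosomes. In none of the 4 lists did a gene pass edgeR's test between P1 and P3 or between P1 and P7. At the study's looser rule, 1 gene of fructose and polyol metabolism and 1 of hexose phosphorylation and glycogen counted between P1 and P3, where 10.6% of all genes did. Between P1 and P7, 3 genes of fructose and polyol metabolism and 1 regulator counted, where 11.7% of all genes did. Of the other sugar carriers, 2 of 16 listed genes were tested and 0 passed in any comparison by edgeR's quasi-likelihood test. These were SLC5A3, a sodium-coupled myo-inositol carrier, with a log2 change from P1 to P28 of 0.39 (adjusted p = 0.347), and SLC37A1, a sugar phosphate exchanger, with -0.29 (0.434). At the looser rule 0 of them counted between P1 and P28 and 1 between P7 and P28, where 25.1% of all genes did.

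Of 18 genes of fructose and polyol metabolism, 7 were tested, and 2 passed between P1 and P28, both lower. TKFC, the triokinase that phosphorylates glyceraldehyde from fructose, went from 61.5 ± 1.85 to 38.0 ± 7.59 CPM (log2 change -0.70, SE 0.18, adjusted p = 0.0216). It fell between P3 and P7 as well (-0.85, adjusted p = 0.0348). GFPT2, which makes glucosamine 6-phosphate from fructose 6-phosphate, went from 35.8 ± 11.8 to 18.6 ± 0.208 CPM (-0.94, SE 0.25, adjusted p = 0.0259). SORD, which makes fructose from sorbitol, did not pass (-0.48, adjusted p = 0.378), nor did GLYCTK, the glycerate kinase (0.55, adjusted p = 0.0748). The median log2 change of the 7 genes from P1 to P28 was -0.26, against 0.00 over all genes tested.

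Of 35 genes of hexose phosphorylation and glycogen, 12 were tested and 1 passed between P1 and P28. GYG1, the glycogenin that primes glycogen, went from 619 ± 48.2 to 379 ± 73.5 CPM (log2 change -0.71, SE 0.21, adjusted p = 0.0370). Between P7 and P28, GYG1 (-1.05, adjusted p = 0.00428) and the glycogen phosphorylase PYGL (-0.43, adjusted p = 0.0482) fell. The median from P1 to P28 was 0.04. Of 40 regulators of glucose transporters, 10 were tested and 1 rose between P1 and P28, AKT2, the kinase of insulin-driven glucose uptake, from 174 ± 1.95 to 266 ± 11.3 CPM (0.61, SE 0.17, adjusted p = 0.0259). Between P7 and P28, the AMP-activated kinase subunit PRKAA2 (0.54, adjusted p = 0.0443) and the nuclear receptor ESRRA (0.58, adjusted p = 0.0248) rose. HIF1A, a hypoxia-inducible factor, had a change from P1 to P28 of -0.36 (adjusted p = 0.218), and the median of the list was 0.09. These shares passing are read against 15.3% of all genes between P1 and P28 and 18.8% between P7 and P28.

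**Figure D4:**
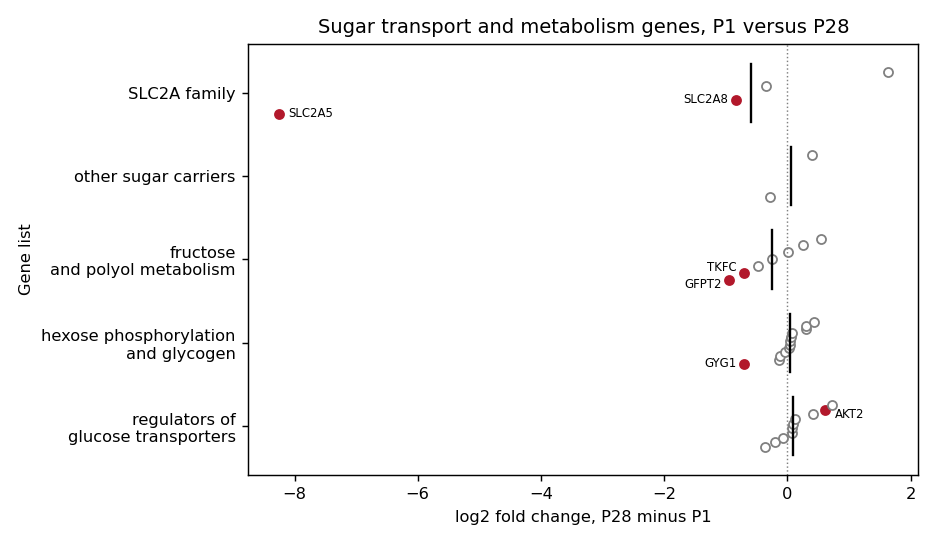
Log2 fold changes (P28 minus P1) of the tested SLC2A genes and of 4 lists of sugar transport and metabolism genes, one point per gene, filled and named where the adjusted p was under 0.05, with the list median as a line. SLC2A5 at -8.26 stands far to the left, and the named genes of the other lists lie between -0.94 and 0.61.

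Markers of other cell types were summed in each library beside the SLC2A5 result. The sum of 4 erythroid markers, most of it TFRC, was 1885 to 2894 CPM at P1, 620 to 1298 at P3, 1227 to 1305 at P7 and 1483 to 1863 at P28. It was thus highest at P1, with its maximum in P1 library 4. Over the 4 markers, 0 passed edgeR's test between P1 and P28 and 3 counted at the study's looser rule, where 23.1% of all genes did, with a median log2 change of -0.53. Between P7 and P28, 1 fell and 0 rose, where 10.5% of all genes were lower, with a median of -0.70. The one that fell was EPB42, a membrane skeleton protein of red cells (-1.77, adjusted p = 0.0142), whose mean was 1.72 CPM at P1, 7.03 at P3, 4.06 at P7 and 1.20 at P28. RHCE, a blood group protein, had a log2 change from P1 to P28 of -1.81 (adjusted p = 0.122) and TAL1, an erythroid transcription factor, of 0.53 (adjusted p = 0.0956). TFRC, the transferrin receptor, was lower at the later ages than at P1 (log2 change against their mean -0.92, adjusted p = 0.0237). The part of these cells in the SLC2A5 result was not tested. Sums of 11 myeloid markers were 529 to 736 CPM at P1, 514 to 636 at P3, 460 to 601 at P7 and 812 to 1267 at P28. Between P1 and P28, 4 of the 11 rose (TYROBP, CSF3R, C1QB and SPI1) and 0 fell, where 7.38% of all genes were higher. Their part in the values of SLC2A5 and SLC2A6 was not tested.

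The sum of 3 fibroblast markers was 4346 to 4735 CPM at P1, 2420 to 4875 at P3, 4408 to 4995 at P7 and 1335 to 1676 at P28. FBN1 and TCF21 were the 2 that fell between P1 and P28, where 7.93% of all genes were lower. Both fell between P7 and P28 as well, where 10.5% of all genes and SLC2A8 were lower. Their part in the SLC2A8 result was not tested. The sum of 4 endothelial markers was 791 to 981 CPM at P1 and 749 to 817 at P28. Between P1 and P28 TEK rose and 0 fell (7.38% of all genes were higher), with a median log2 change of -0.34 over the 4 markers. Between P7 and P28 TIE1 fell and 0 rose (10.5% of all genes were lower), with a median of -0.56. The sum of 2 smooth muscle and pericyte markers was 349 to 419 CPM at P1 and 210 to 458 at P28, and 0 of them passed. Sums of 3 B cell markers, 2 of them tested, were 623 to 638 CPM at P1 and 526 to 607 at P28. CD22 was higher at P28, as were 7.38% of all genes. The median log2 change of the 2 tested markers was 1.16, opposite in direction to the sum. Sums of 4 adipocyte markers, 2 of them tested, were 37.7 to 53.6 CPM at P1 and 47.8 to 72.1 at P28. PPARG was lower at P28, as were 7.93% of all genes. The 1 epithelial marker tested, CDH1, stayed at or under 11.3 CPM in every library. Among cardiomyocyte genes MYBPC3 rose and ACTC1 fell between P1 and P28, where 7.38% of all genes were higher and 7.93% lower.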

How the data were processed

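RNA of 12 pig hearts was sequenced in one batch (cd), 3 pigs at each of P1, P3, P7 and P28. The authors deposited whole-number read counts per gene without normalization, with each gene's position and exon length. STAR 2.7.9a, MultiQC 1.11 and the build Sscrofa10.2 are named in the submitters' processing notes. The read counter, strand setting and treatment of overlapping genes are not given in the sources used here. Of 4355 gene symbols shared with RefSeq's Sscrofa11.1, 4350 (99.9%) overlapped its positions, so the coordinates printed, which are those of the table, are read as that build. The table held on chromosomes 1, 2, 6 and 13 is only part of a genome, and 1 line without counts was left out.

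Genes with at least 10 counts in at least 3 libraries were tested in R 4.3.3 with edgeR 4.0.16 (TMM, quasi-likelihood, all 4 ages in one fit), with Benjamini-Hochberg adjustment over all 5526 genes and calls at an adjusted p under 0.05. Standard errors and 95% intervals were derived from the F statistics. A log2 fold change is later minus earlier age. Likeness used log2 CPM with a prior count of 2. The intervals of count ratios are exact conditional binomial ones. The script was tested on simulated data with known changes. Alternatives were limma 3.58.1 (voom), DESeq2 1.42.0 (its size factors, its test), library totals without TMM, counts without Metazoa_SRP, other filters, only the ages compared, a replicate block, the study's thresholds, and leaving out each library. Plots were drawn with Python 3.11.15 and matplotlib 3.10.9. The genes named are the SLC2A rows, their neighbours by position, the closest profiles (5 for SLC2A5, 3 for each other member) and list members past the threshold in a pairwise comparison, of which 1 is not reported here. The members and lists were chosen with earlier results of these data known.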

Additional observations from a re-analysis of the deposited data

How the results depend on the processing

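There were 22 alternatives, 12 of which leave out 1 library each. Of 523 values of single genes, 514 kept their direction where it was called and their side of the threshold. Another 9 came to pass the threshold, 0 ceased to pass and 0 reversed. The study's thresholds were applied to the main fit, so log2 changes could not move there. In a pairwise comparison, some of the libraries left out belonged to ages not compared. The number of SLC2A genes called between P3 and P7, 0 as reported, was 1 with DESeq2's test, 1 without a filter on low counts and 1 at the study's thresholds, where calls over all genes went from 122 to 363, 173 and 717. It ranged from 0 to 1 when libraries were left out (1 without P1 library 4). That gene was SLC2A5 each time (adjusted p = 0.00823 with DESeq2, 0.0462 without the filter, 0.0360 without P1 library 4). SLC2A6 passed between P1 and P28 with DESeq2 (0.0394), with only the ages compared (0.0343), at the study's thresholds and without P3 library 5 (0.0328) or 6 (0.0463), over a leave-one-out range of log2 changes of 1.25 to 2.03 and of adjusted p of 0.0328 to 0.219, and its adjusted p was 0.104 with the replicate block. The fall of SLC2A5 between P1 and P28 ranged from -8.53 to -7.57 when libraries were left out and from -8.36 to -7.82 otherwise, that of SLC2A8 from -1.03 to -0.74 and from -0.85 to -0.84. The cause of these shifts was not tested. Library totals without TMM moved the median log2 change of all genes to 0.13 between P1 and P7 and to -0.12 between P7 and P28, and no member's call changed with it. The fit of P7 and P28 alone gave no value for SLC2A5, which the count filter removed there.

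Column numbers are shared between ages, but same-numbered libraries did not deviate together in most pairs (18 pairs, correlation -0.19 to 0.33, 5 of them over 0.1), and 6 of 12 libraries correlated best with their own number. The median correlation was 0.035 for these pairs and -0.018 for 36 pairs of different numbers, 6 of them over 0.1. With the number as a replicate block, the log2 change of SLC2A5 between P1 and P28 was -8.21 (adjusted p = 7.44e-05), and no call of a member changed. Depth limits SLC2A5 at P7 and P28, which rest on 19 and 5 counts, and SLC2A6, with 243 counts in all.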
